A study of Danio rerio with 6 samples.

Results

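ETS transcription factors outside the Pea3 family were followed in single whole zebrafish (Danio rerio) embryos at the 10-somite stage. Genes were chosen by symbol from a table of 32057 genes: ets1, ets2, fli1a, erg, etv2, etv6, elk3, elk4, gabpa and elf2b. A row was found for 9 of these 10 symbols. No row bore the symbol etv6, a transcriptional repressor of the family, and it was not analysed here. All 9 genes found passed the filter on low counts.

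The study compared 3 wild-type embryos (WT) with 3 embryos that the labels call 3etv and the series title calls Pea3 triple mutants. The labels name neither the mutated alleles nor the 3 genes that carry them, and they give no strain, clutch or parental line. Effects of genotype and of clutch or line cannot be told apart in this design. Each library came from 1 embryo, so p-values measure the spread between single embryos.

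ETS factors share a DNA-binding domain that recognises a GGAA core, and members of different subfamilies can bind the same sites. The Pea3 genes etv1, etv4, etv5a and etv5b are transcriptional outputs of fibroblast growth factor (FGF) signalling, and their proteins are switched on by the kinase ERK. In other vertebrates Ets1 and Ets2, and the Elk factors that bind DNA beside serum response factor (SRF), are also phosphorylated by ERK. The comparison addresses whether any such gene was expressed at a different level when Pea3 genes were mutated. Transcript abundance was measured, and neither protein nor DNA binding was.

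Gene counts totalled between 22446699 and 28841169 in the WT libraries and were lower in each 3etv library, between 18484238 and 21865288. Levels are given in CPM, each library's counts brought to 1 common total with TMM factors. No exon lengths were at hand, so no gene's level is ranked against another's; sums, read shares and ratios of genes are compared only between the groups. The whole-embryo label was checked against genes of notochord and tailbud (tbxta), paraxial mesoderm (tbx16), muscle (myod1) and the midbrain-hindbrain boundary (pax2a). The lowest CPM of these 4 genes in any library was 46.8.

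In 3etv, ets2, ets1 and etv2 rose, and none of the 9 genes fell past the threshold, an edgeR adjusted p under 0.05 over all genes tested. That is 3 of 9 genes (33.3%), beside 31.3% of all 18533 tested genes, so the share called was near the background. In the upward direction alone 3 of 9 passed, beside 15.9% of all tested genes. The values of both groups did not overlap for 5 of the 9 genes, 4 higher and 1 lower in 3etv, beside 45.1% of all tested genes. The median log2 fold change was 0.28 over the 9 genes and 0.0035 over all tested genes. Because the tissue was a whole embryo, fewer cells of a type and less RNA per cell cannot be told apart in any of these values.

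**Figure D1:**
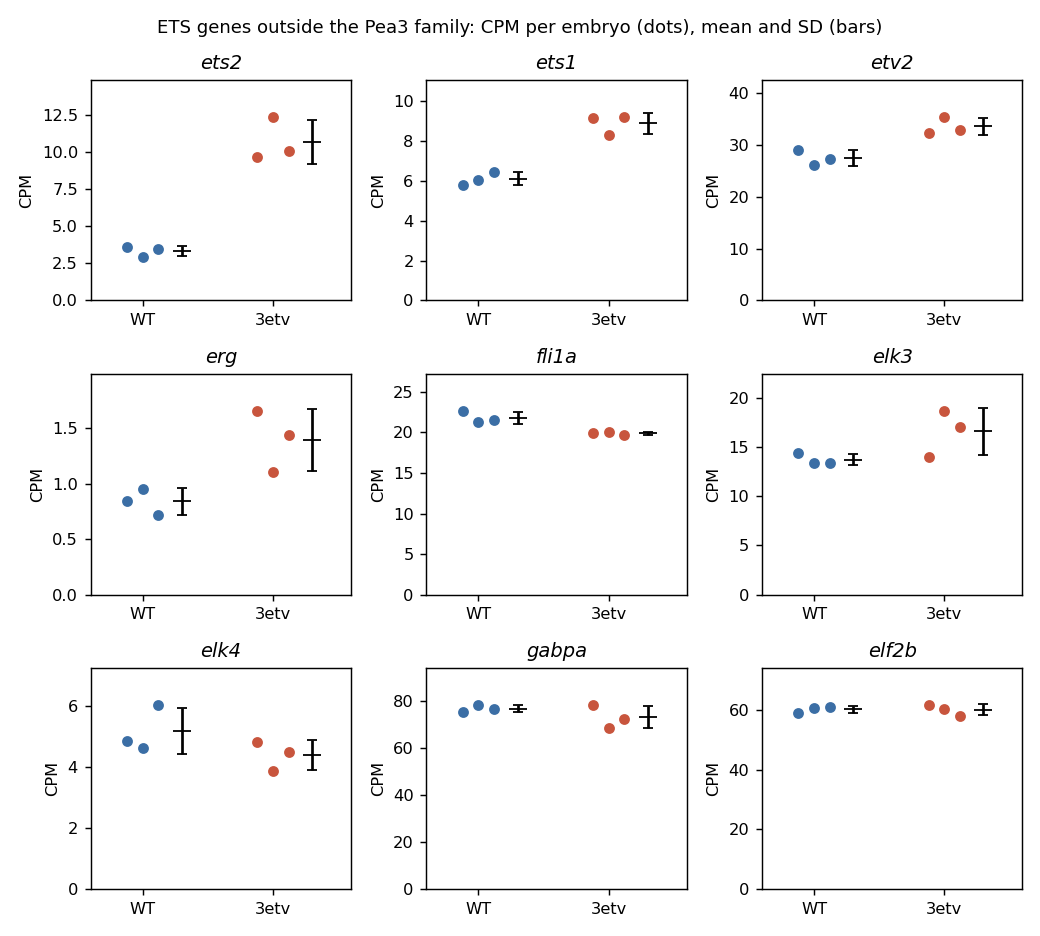
CPM of the 9 ETS genes in each WT and 3etv embryo (dots, 3 per group), with the group mean and SD as black bars, each panel on its own linear axis from 0. The 3etv embryos lie above the WT embryos for ets2, ets1, etv2 and erg and below them for fli1a, and the groups overlap for elk3, elk4, gabpa and elf2b.

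ets2 (ENSDARG00000103980), a relative of ets1 with the same Pointed domain, had 3.61, 2.94 and 3.47 CPM in the WT embryos and 9.69, 12.4 and 10.1 in the 3etv embryos. All 3 mutant embryos stood far above the highest WT embryo. The group means were 3.34 ± 0.35 and 10.7 ± 1.48 CPM (SD, n = 3 each), a 3.22-fold rise. On the log2 scale the change was 1.69 (SE 0.15, 95% interval 1.36 to 2.02, edgeR adjusted p 5.27e-06). By p-value ets2 stood 171st of the 18533 tested genes. These means rest on 81 to 87 counts per WT library and 181 to 270 per 3etv library.

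ets1 (ENSDARG00000024431), which in other vertebrates acts in early vessels and in neural crest, had 5.80, 6.06 and 6.47 CPM in WT and 9.16, 8.28 and 9.23 in 3etv. Its groups did not overlap. The mean rose from 6.11 ± 0.34 to 8.89 ± 0.53 CPM (SD, n = 3 each). On the log2 scale this was 0.54 (SE 0.13, 95% interval 0.26 to 0.81), with an edgeR adjusted p of 0.0059. Both ets1 and ets2 passed in all 13 alternative fits.

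etv2 (ENSDARG00000053868), also called etsrp, is required at the start of endothelial and myeloid development in zebrafish. It had 29.1, 26.1 and 27.4 CPM in WT and 32.3, 35.55 and 33.0 in 3etv, again without overlap. The rise was small, 0.29 on the log2 scale (SE 0.081, 95% interval 0.12 to 0.46), with an edgeR adjusted p of 0.015. It depended on single libraries: the adjusted p was 0.085 without WT embryo 2, the lowest WT embryo, and 0.076 without 3etv embryo 2, the highest. Over the 13 alternatives it ran from 0.010 to 0.085.

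erg (ENSDARG00000077304), an endothelial factor that in mammals maintains cell junction genes, was counted between 18 and 31 times per library. Its values were 0.85, 0.96 and 0.72 CPM in WT and 1.66, 1.104 and 1.44 in 3etv. The groups did not overlap, but the log2 fold change of 0.72 (SE 0.30, 95% interval 0.069 to 1.37) missed the threshold (edgeR adjusted p 0.087). At this depth a difference of erg was not shown.

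fli1a (ENSDARG00000054632), which marks endothelial and blood precursors, was the one gene of the 9 with every 3etv embryo below every WT embryo. It had 22.7, 21.3 and 21.5 CPM in WT and 19.9, 20.1 and 19.7 in 3etv. The gap between the groups was narrow, and the log2 fold change of -0.13 (SE 0.084, 95% interval -0.31 to 0.047) missed the threshold (edgeR adjusted p 0.25).

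The Elk factors form ternary complexes with SRF on immediate early genes. elk3 (ENSDARG00000018688), which in mammals represses its targets until phosphorylated, had 14.4, 13.4 and 13.3 CPM in WT and 14.0, 18.7 and 17.1 in 3etv. One 3etv embryo, number 1, lay within the WT range, and the log2 fold change of 0.28 (SE 0.11) missed the threshold (edgeR adjusted p 0.082). Without that embryo elk3 passed, at 0.39 (edgeR adjusted p 0.018), and its adjusted p ran from 0.018 to 0.33 over the alternatives. elk4 (ENSDARG00000077092) had 4.86, 4.62 and 6.03 CPM in WT and 4.82, 3.86 and 4.48 in 3etv, so its groups overlapped. It differed by -0.24 on the log2 scale (SE 0.17, 95% interval -0.61 to 0.13), with an edgeR adjusted p of 0.31.

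gabpa (ENSDARG00000069289) encodes the DNA-binding subunit of GABP, a factor of housekeeping and mitochondrial genes. It had 75.2, 78.1 and 76.6 CPM in WT and 78.2, 68.6 and 72.3 in 3etv. elf2b (ENSDARG00000079626), of the Elf subfamily, had 59.0, 60.8 and 61.0 CPM in WT and 61.7, 60.4 and 58.1 in 3etv. Both genes had overlapping groups and were the most narrowly bounded of the 9. Their 95% intervals ran from -0.22 to 0.073 for gabpa and from -0.14 to 0.13 for elf2b on the log2 scale (edgeR adjusted p 0.45 and 0.96).

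The Pea3 genes themselves were the reference for these changes. etv5b and etv5a differed by -1.69 and -1.52, and etv1 by -1.33 (edgeR adjusted p 1.89e-08, 1.82e-08 and 0.0082). The value of etv1 (SE 0.33) rests on 27 to 45 counts per WT library and 8 to 13 per 3etv library. etv4 differed by -0.52 and missed the threshold (edgeR adjusted p 0.057), with 3etv embryo 2 lowest at 45.9 CPM and embryo 1 highest at 77.7. It passed in 6 of 13 alternative fits, DESeq2 (adjusted p 6.19e-04) and limma voom (adjusted p 0.0087) among them, with log2 fold changes from -0.73 without 3etv embryo 1 to -0.35 without 3etv embryo 2 (edgeR adjusted p 2.42e-04 and 0.029). Among the 3etv embryos, the same embryo 2 held the highest value of ets2, elk3, etv2 and fli1a, and the lowest of erg, ets1, elk4 and gabpa. On the log2 scale the rise of ets2 was about as large as the fall of etv5b, which is not an equal change in reads. Mean CPM went from 3.34 in WT to 10.7 in 3etv for ets2 and from 198.5 to 61.5 for etv5b. Whether ets2 stands in for a Pea3 gene was not tested.

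**Figure D2:**
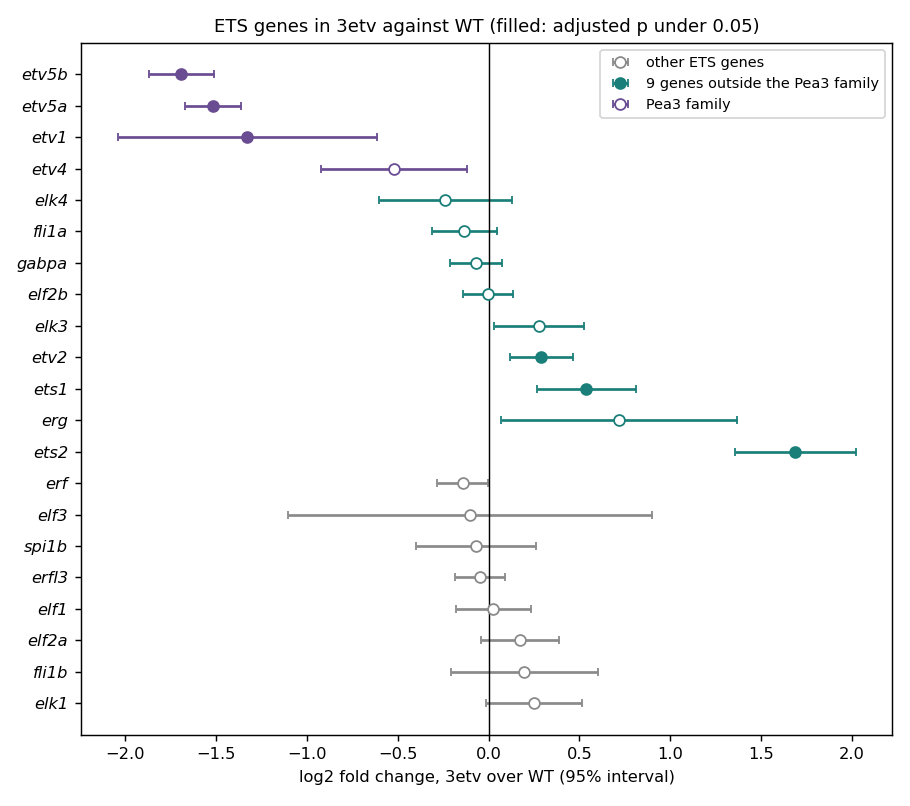
Log2 fold change of 3etv over WT (x axis) with its 95% interval for each tested ETS gene: the 4 Pea3 genes, the 9 genes outside the family and 8 other ETS genes. Filled points passed the threshold: etv5b, etv5a and etv1 on the lower side and ets2, ets1 and etv2 on the higher side.

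Reads of the 4 Pea3 genes together came to 364.2 ± 9.47 CPM in WT and 149.9 ± 12.4 CPM in 3etv (SD, n = 3 each). The 9 genes outside the family summed to between 214.3 and 216.6 CPM in WT and between 225.4 and 231.4 CPM in 3etv. Of the reads of these 13 genes, the Pea3 genes held 62.8% ± 0.62 in WT and 39.6% ± 2.04 in 3etv (SD, n = 3 each). These are shares of reads, not of transcripts, since long transcripts give more reads, and no test was made of a score over chosen genes. Pea3 reads in 3etv may come from mutated genes, so the share does not measure working Pea3 factor.

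A wider list named 20 more ETS symbols, of which 15 were found and 8 passed the filter on low counts. Among these 8, 0 passed the threshold with edgeR, DESeq2 or limma voom, beside 31.3% of all tested genes with edgeR. The groups did not overlap for 2 of the 8, erf and erfl3, both lower in 3etv, beside 45.1% of all tested genes. Only 1, erf, had an unadjusted edgeR p under 0.05. erf (ENSDARG00000063417), a repressor that ERK removes from the nucleus in mammals, had 114.1, 99.2 and 105.5 CPM in WT and 95.5, 96.4 and 96.8 in 3etv. Its values did not overlap and differed by -0.14 on the log2 scale (SE 0.065), with an edgeR adjusted p of 0.12. The third Elk gene, elk1, differed by 0.25 (SE 0.12, edgeR adjusted p 0.14). The median log2 fold change of the 8 genes was -0.010. The 7 genes below the filter, fev, etv7, ehf, spi1a, spi2, spic and SPDEF, had at most 8 counts in any library, and etv7 had 0 in all 6.

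Within each embryo 10 ratios between pairs of ETS genes, most of them close relatives or neighbours, were taken, which removes library size and scaling. The pairs were chosen after their values were seen, so the p-values and counts of these ratios are descriptive only. The groups did not overlap for 5 of the 10, and the share over other gene pairs was not computed. For single genes it was 45.1% of all tested. The 5 ratios reuse ets2, ets1, erg and fli1a, so they are not independent of each other. The log2 ratio of ets2 to ets1 was -0.87 ± 0.18 in WT and 0.26 ± 0.28 in 3etv (SD, n = 3 each; two-sided exact permutation test, p 0.1). That is the smallest p that 3 against 3 embryos can give, and it is 0.2 after Benjamini-Hochberg adjustment over the 10 ratios. The ratios of ets2 to erg, ets1 to fli1a, erg to fli1a and etv2 to fli1a were also higher in every 3etv embryo, by 0.95, 0.67, 0.86 and 0.42 on the log2 scale. Each had the same exact permutation p of 0.1.

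The ratio of etv2 to fli1a had the least spread of the 10 ratios. It was 0.36, 0.30 and 0.35 in the WT embryos and 0.70, 0.82 and 0.75 in the 3etv embryos on the log2 scale. The paralogue pairs fli1a with fli1b and elf2b with elf2a overlapped between the groups, as did elk3 with elk4, elk3 with elk1, and etv2 with fli1b. Their exact permutation p-values ran from 0.2 to 1.

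**Figure D3:**
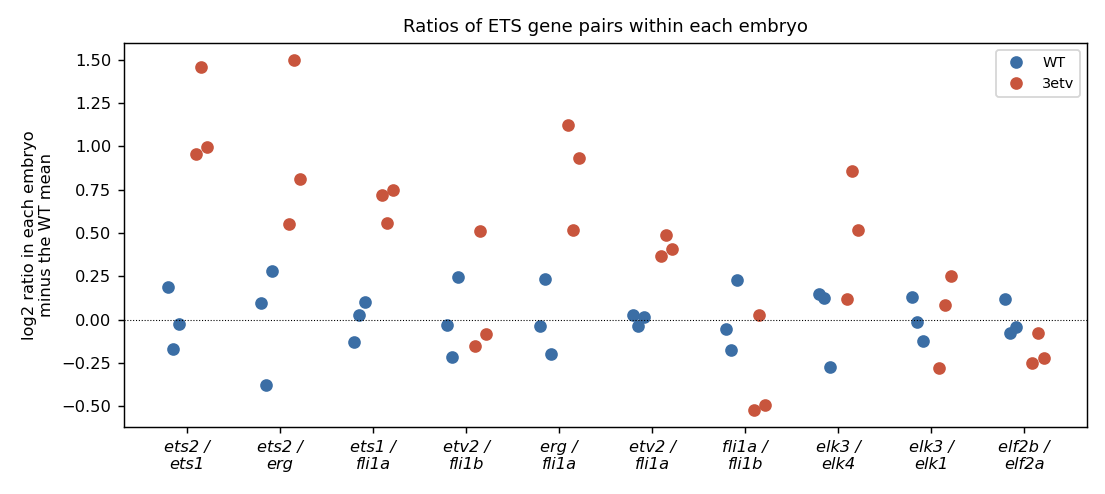
Log2 ratio of 2 ETS genes in each embryo minus the WT mean of that ratio (y axis), for 10 gene pairs, with 3 WT and 3 3etv embryos as dots. The 3etv embryos stand above the WT embryos in the pairs ets2/ets1, ets2/erg, ets1/fli1a, erg/fli1a and etv2/fli1a.

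Genes of early vessels and blood, in which etv2, fli1a and erg act, moved in both directions. Of 25 tested, 6 rose and 4 fell, 40% beside 31.3% of all tested genes, with a median log2 fold change of 0.014. This list and those of the paragraphs below were chosen with earlier results of these data known. Without 3etv embryo 2 the count was 6 in place of 10. Transcription regulators of the list differed among themselves. npas4l, which acts upstream of etv2 in zebrafish, rose from 17.4 ± 2.20 to 27.1 ± 3.33 CPM (log2 fold change 0.64, edgeR adjusted p 0.0011), and lmo2, a blood and vessel cofactor, from 42.3 ± 7.35 to 60.8 ± 5.94 CPM (0.53, edgeR adjusted p 0.0053; SD, n = 3 each). tal1, the partner of lmo2, differed by 0.26 and missed the threshold (edgeR adjusted p 0.053), and gata2a differed by 0.012 (edgeR adjusted p 0.92). Among further regulators, sox7 and hhex rose by 0.51 and 0.67 (edgeR adjusted p 0.011 and 0.044), and gata1a fell, as given below.

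Receptors of vessel cells differed among themselves. kdr, a VEGF receptor, rose from 2.35 ± 0.30 to 6.44 ± 0.94 CPM (log2 fold change 1.46, edgeR adjusted p 7.03e-05), while tek, the angiopoietin receptor, fell by 1.02 on the log2 scale (edgeR adjusted p 7.57e-04) and the apelin receptor gene aplnra by 0.41 (edgeR adjusted p 0.0015). cdh5, the endothelial cadherin, fell by 0.63 (edgeR adjusted p 0.026), and gata1a, the erythroid factor, fell by 0.59 (edgeR adjusted p 0.0048). kdrl, a further receptor gene of the list, had 13.0 ± 0.35 CPM in WT and 12.4 ± 0.45 CPM in 3etv (SD, n = 3 each, edgeR adjusted p 0.61). The receptor gene tie1 differed by -0.15 on the log2 scale (edgeR adjusted p 0.59). The summed level of the 27 listed genes was between 379.6 and 419.7 CPM in WT and between 401.1 and 454.3 CPM in 3etv, ranges that overlap. gata2b and klf1 were below the filter on low counts, no defining marker of these cells was at 0, and the part of these cells in the rise of etv2 was not tested.

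Of 8 myeloid genes 5 were below the filter on low counts, and 2 of the 3 tested rose, too few to set against the 15.9% of all tested genes called higher. lcp1, an actin-bundling protein of leukocytes, rose from 24.3 ± 2.45 to 60.2 ± 2.73 CPM (SD, n = 3 each; log2 fold change 1.31, edgeR adjusted p 2.35e-07), and cebpa rose by 0.35 (edgeR adjusted p 0.021). cebpa was not called in the fits without WT embryo 2, without WT embryo 3 or without 3etv embryo 2. spi1b, the ETS factor of myeloid cells, differed by -0.070 (edgeR adjusted p 0.76). The neutrophil and macrophage markers mpx and mpeg1.1 were at or near 0 in both groups, while lcp1 had at least 537 counts in each library. Which cells held the lcp1 reads was not tested. The summed level of the 8 genes, mostly lcp1 and cebpa, was between 48.5 and 57.1 CPM in WT and between 93.05 and 97.5 CPM in 3etv.

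Neural crest is a tissue in which ets1 acts in other vertebrates, and its listed genes fell in 3etv or were not called. Of 14 tested, 8 fell and 0 rose, 57.1%, with a median log2 fold change of -0.31. Of all tested genes 31.3% were called in either direction and 15.4% were called lower. The list was chosen with earlier results of these data known. crestin fell from 9.59 ± 0.29 to 2.99 ± 0.70 CPM (SD, n = 3 each; log2 fold change -1.68, edgeR adjusted p 9.44e-06), and twist1a, tfap2a, sox10 and snai2 by 0.83, 0.38, 0.59 and 0.38 (edgeR adjusted p 1.30e-04, 6.25e-04, 0.0017 and 0.0055). foxd3, an early crest specifier, differed by 0.052 (edgeR adjusted p 0.68). The summed level was between 819.0 and 858.0 CPM in WT and between 638.7 and 764.8 CPM in 3etv. The count was 5 in place of 8 without WT embryo 3 and without 3etv embryo 2. The part of crest cells in the change of ets1 was not tested.

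The list of SRF partners and immediate early genes, with targets of the Elk factors among them, held the largest change of any list here. Of 22 tested SRF partners and immediate early genes, 5 rose and 5 fell, 45.5% beside 31.3% of all tested genes, with a median of 0.10. Earlier results of these data were known when this list, too, was chosen. egr1, a target of SRF and Elk factors, had 3.30, 2.39 and 1.88 CPM in WT and between 15.9 and 24.0 in 3etv. Its log2 fold change was 2.99, with an SE of 0.20 (edgeR adjusted p 1.35e-06). The AP-1 genes fosl1a and fosab rose by 1.75 and 1.66 (edgeR adjusted p 2.16e-05 and 1.01e-04). fosb, with at most 31 counts in any library, rose by 2.59 (edgeR adjusted p 0.0082). The AP-1 genes fosl2, jun, junba and junbb missed the threshold (edgeR adjusted p from 0.058 to 0.39). egr2a and egr2b, of the same gene family as egr1, fell by 0.80 and 0.56 (edgeR adjusted p 0.012 and 0.0014). Whether they act as immediate early genes in these embryos was not tested. The matricellular genes ccn1 and ccn2a fell by 1.67 and 0.70 on the log2 scale (edgeR adjusted p 7.92e-07 and 6.66e-05). Of the SRF genes, srfb differed by -0.67 (edgeR adjusted p 0.0017) and srfa by -0.14 (edgeR adjusted p 0.28).

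**Figure D4:**
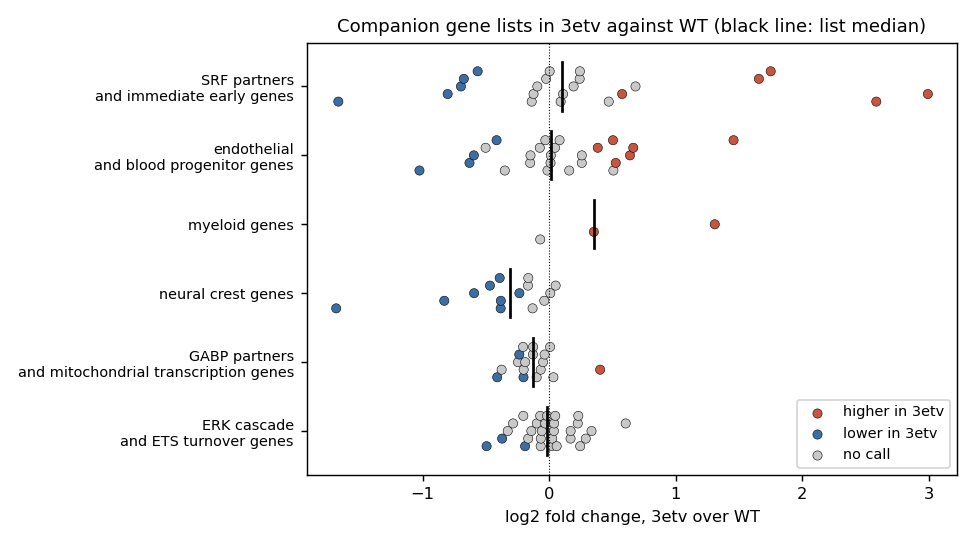
Log2 fold change of 3etv over WT (x axis) for each tested gene of 6 companion lists, red where called higher, blue where called lower and grey where not called, with the list median as a black line. Immediate early genes reach a log2 fold change of 2.99 (egr1), and the called neural crest genes are all lower.

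GABP needs a beta subunit to activate transcription, and the genes gabpb1, gabpb2a and gabpb2b had log2 fold changes of -0.38, -0.035 and -0.19 that missed the threshold (edgeR adjusted p 0.22, 0.77 and 0.21). Of 17 tested GABP partners and mitochondrial transcription genes, 1 rose and 3 fell, 23.5% beside 31.3% of all tested genes. twnk, the mitochondrial helicase, rose by 0.40 (edgeR adjusted p 9.45e-04). The falls of mterf1, ppargc1b and tfam, by 0.41, 0.24 and 0.20, had edgeR adjusted p-values between 0.035 and 0.047. The count of 4 was 1 without WT embryo 2 and without 3etv embryos 2 or 3, and 2 without WT embryos 1 or 3.

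Of 29 tested ERK cascade and ETS turnover genes, 3 fell and 0 rose, 10.3% beside 31.3% of all tested genes and 15.4% called lower. These were map2k1, the kinase above ERK (log2 fold change -0.37, edgeR adjusted p 0.0052), and the FGF receptor adaptors frs2a and frs2b (-0.49 and -0.19, edgeR adjusted p 0.0058 and 0.048). The count was 2 with DESeq2 and ran from 2 to 4 when 1 embryo was left out. Without WT embryo 3, and without 3etv embryo 3, 1 gene rose and 2 fell.

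Some ETS genes sit side by side in the genome. In the RefSeq gene order of GRCz12tu, which is not the assembly named in the submitters' processing notes, erg and ets2 are adjacent among tested genes, as are fli1a and ets1, and fli1b and etv2. In each of these pairs one gene passed the threshold and the other did not. The ratio within the pair did not overlap between the groups for ets2 with erg and ets1 with fli1a, and overlapped for etv2 with fli1b, with the exact p-values given above for these ratios. gabpa is the only one of the 9 genes on a chromosome that carries a Pea3 gene, etv5a.

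Neighbours of ets2 were looked up after the values were seen. Of its 10 tested neighbours, 2 rose and 1 fell, 30% beside 31.3% of all tested genes. These were klhl35 and pigp, which rose, and ripply3, which fell, all among the 5 on the side of erg. On the other side 0 of 5 passed. pigp (ENSDARG00000038805), a subunit of the enzyme that starts GPI anchor synthesis, had 2.05, 1.61 and 2.43 CPM in WT and 17.5, 13.5 and 17.5 in 3etv, 7.97-fold higher (SE 0.17 on the log2 scale, edgeR adjusted p 8.09e-08). klhl35 had at most 16 counts in any library, and its log2 fold change was 1.86 (SE 0.50), with an edgeR adjusted p of 0.013. ripply3, a repressor of T-box factors, differed by -0.97 (SE 0.20, edgeR adjusted p 0.0027). Over all 9 genes, 21 of 70 distinct neighbours passed (30%), 11 higher and 10 lower, beside 31.3% of all tested genes.

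**Figure D5:**
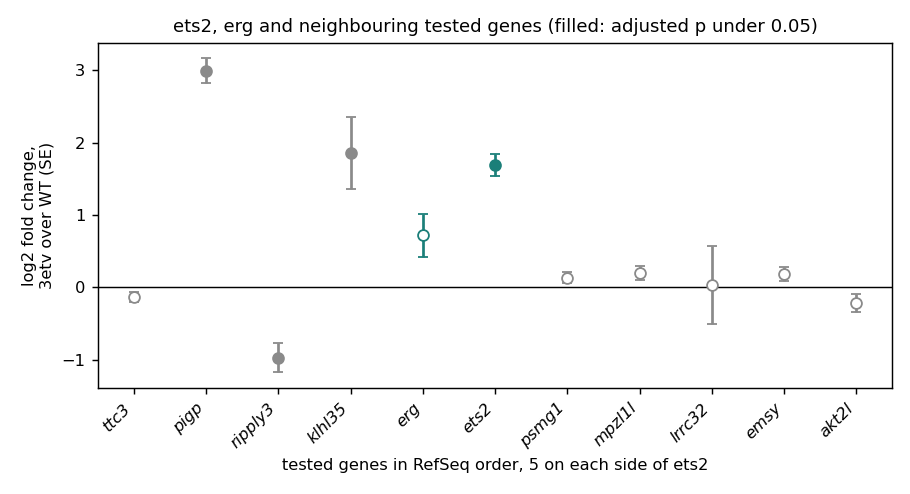
Log2 fold change of 3etv over WT with its SE (y axis) for ets2 and the 5 tested genes on each side in RefSeq order (x axis, gene order and not distance), filled where the adjusted p was under 0.05. pigp, klhl35 and ets2 are higher, ripply3 is lower, and the 5 genes on the far side of ets2 lie near 0.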

How the data were processed

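The authors deposited raw counts per Ensembl gene for 6 poly-A, strand-specific libraries, with no normalization. STAR, HTSeq and GRCz11 are named in the submitters' processing notes; versions, annotation release and strand setting are not given in the sources used here. Where strand was not used in counting, overlapping genes cannot be told apart. The last 5 entries of the table, reads assigned to no single gene, were left out; the one for no gene held between 52.8% and 53.55% of reads. The header has a space in place of a tab, so columns were matched by the order of its names, each equal to 1 sample title.

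The test was edgeR 4.0.16 under R 4.3.3 (filterByExpr, TMM, robust quasi-likelihood, genotype alone) with Benjamini-Hochberg adjustment over 18533 genes. Intervals are 95% and cover the model's error. Alternatives used DESeq2 1.42.0 and limma 3.58.1, other scaling and filters, and each embryo left out. The fits were tested on simulated data. The genes and lists were chosen with earlier results of these data known. Symbols were matched ignoring letter case. Named genes are the 9 found, the Pea3 genes, and up to 5 called genes per list with the lowest adjusted p; others, the neighbours and the pairs were chosen after their values were seen. A planned comparison of ETS domains and of levels per length was not run here.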

Additional observations from a re-analysis of the deposited data

How the results depend on the processing

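ets1 and ets2 passed, and kept their direction, in all 13 alternative fits, and etv2 passed in 10 of 13. The replicate numbers gave no sign of pairing, since deviations of same-numbered embryos correlated at -0.13, -0.030 and -0.099. With the replicate number as a block, 2 of the 9 genes passed, etv2 having an adjusted p of 0.055 and etv4 one of 0.017; 4524 genes passed in all, 5 neural crest genes, 1 myeloid gene and 1 GABP or mitochondrial gene. At an adjusted p under 0.01, 3460 genes passed in all, 2 of the 9, 6 vessel and blood genes, 5 neural crest genes, 1 myeloid gene and 1 GABP or mitochondrial gene. With DESeq2, 1 gene of the GABP list passed. Leaving out 1 embryo gave from 4247 to 5721 genes in all, from 2 to 4 of the 9, from 6 to 10 vessel and blood genes, from 1 to 2 myeloid genes, from 5 to 7 neural crest genes and from 1 to 3 genes of the GABP list.

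The direction of genes near 0 was not fixed. elf2b was at 0.0075 with upper-quartile scaling and between -0.022 and 0.021 without 1 embryo. In fits without 1 embryo elf1 lay between -0.066 and 0.10, elf3 between -0.64 and 0.22, and spi1b between -0.19 and 0.079. elf3 had from 6 to 22 counts per library and an SE of 0.46 in the main fit. The fall in the Pea3 share of ETS reads, -23.3 percentage points, was -19.95 points with the wider ETS list added to the denominator and from -23.9 to -22.1 without 1 embryo. The share per kilobase could not be computed. For the other changed values the cause was not tested. Among the 9 genes erg had the fewest counts, 18 to 31 per library.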

Other observations

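1 further ETS gene of the table, erfl1 (ENSDARG00000086892), was in no list and was picked after its values were seen. WT libraries held 4, 1 and 3 of its counts and 3etv libraries 12, 14 and 7, too few to pass the filter on low counts, and no test was made.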
